A study of Rattus norvegicus with 6 samples.

Results

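The genes described here encode the chaperones and co-chaperones of the cytosol and the mitochondria. They were taken from the deposited expression table by symbol: the J-domain proteins (Dnaj), the subunits of the chaperonin TRiC whose symbol begins with Cct, the small heat shock proteins (Hspb), the HSP70, HSP90 and HSP110 families, the mitochondrial chaperonin pair Hspd1 and Hspe1, the BAG co-chaperones and the heat shock factors Hsf1 and Hsf2, without 3 J proteins of the endoplasmic reticulum. The rule gave 71 of 14217 measured genes, each read by its probe set with the highest mean, and no filter on level was applied. Hspa8 and Hsp90aa1 have no value here because their probe sets are paired with more than 1 gene, and Hspa1b has none either. The name of the group does not cover every member, since Hspa13, Dnajb12, Dnajb14, Dnajc1 and Dnajc10 encode proteins known from the endoplasmic reticulum.

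Expression was measured on Affymetrix rat arrays in NRK-52E, an established epithelial line from rat kidney tubule. The 3 arrays of the first group came from cells infected with virus that carries a hairpin RNA targeting AMPKα2 (shAMPKα2), and the 3 arrays of the second from cells infected with control virus (shCtrl). Both groups had been treated with 10 ng/mL of TGF-β1, a cytokine that drives epithelial cells towards a mesenchymal state, for 24 h, so the comparison asks what the hairpin does in cells under TGF-β1. The labels name the arrays of a group biological replicates without saying whether they came from separate cultures, so p-values measure only the spread between these arrays, which may be technical.

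Prkaa2, which encodes the targeted AMPKα2, read 6.64, 6.76 and 6.49 on the shAMPKα2 arrays, against 6.83, 6.79 and 6.89 on the shCtrl arrays. The difference, -0.21 on the log2 scale (SE 0.09), missed the threshold (limma, adjusted p = 0.0552), so the groups are called by their labels. Of 10 epithelial markers of the kidney tubule only Krt8 lay above the median gene on the shCtrl arrays. Its mean was 12.24 on the shAMPKα2 arrays and 12.49 on the shCtrl arrays. On the shAMPKα2 arrays Pax8 (7.77) and Aqp1 (7.58) also lay above the median gene, which was 6.78 there. Of the 10, 8 were higher and 1 lower with the hairpin, where 43.6% of all genes were higher and 41.5% lower. None of the markers of fibroblasts, endothelium, immune cells or podocytes lay above the median gene on the shCtrl arrays. All 5 fibroblast markers were nevertheless higher with the hairpin, with a summed log2 level of 26.74 to 27.41 on the shAMPKα2 arrays and 22.73 to 22.91 on the shCtrl arrays, and so were all 4 immune markers, with 22.15 to 22.86 on the shAMPKα2 arrays and 18.48 to 18.77 on the shCtrl arrays. These markers lay in the range of level where most genes rose. Under cyclic loess, another scaling of the arrays described below, 4 of the 5 fibroblast markers and all 4 immune markers still passed as higher. Of all genes 40.2% did so there. Of the 10 epithelial markers 3 were higher and 1 lower under cyclic loess. The part of any of these markers in the results below was not tested.

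Chaperones hold proteins that are not yet folded, or have come unfolded, and release them in cycles of ATP binding and hydrolysis. J proteins bring substrates to HSP70 and start its ATP hydrolysis, while HSP110 and BAG proteins exchange its nucleotide and let the substrate go. HSP90 finishes many kinases and receptors, TRiC encloses actin and tubulin, and small heat shock proteins bind unfolded chains without ATP. Heat shock factors raise the transcription of many of these genes under stress.

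Most chaperone genes were lower with the AMPKα2 hairpin in the deposited values. Of the 71 genes 45 (63.4%) fell and 13 (18.3%) rose at an adjusted p under 0.05, and 13 did not pass (limma, Benjamini-Hochberg over 14217 genes). Among all genes 41.5% fell and 43.6% rose, so that 85.1% passed in either direction. The median log2 fold change was -0.52 over the chaperone genes and 0.05 over all genes. At least 2-fold falls were seen in 13 of the 71 chaperone genes (18.3%), near the 18.6% of all genes. At least 2-fold rises were seen in 4 of the 71, against 11.6% of all genes. The arrays of both groups did not overlap in 62 of the 71, 87.3%, which is near the 87.1% of all genes.

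**Figure D1:**
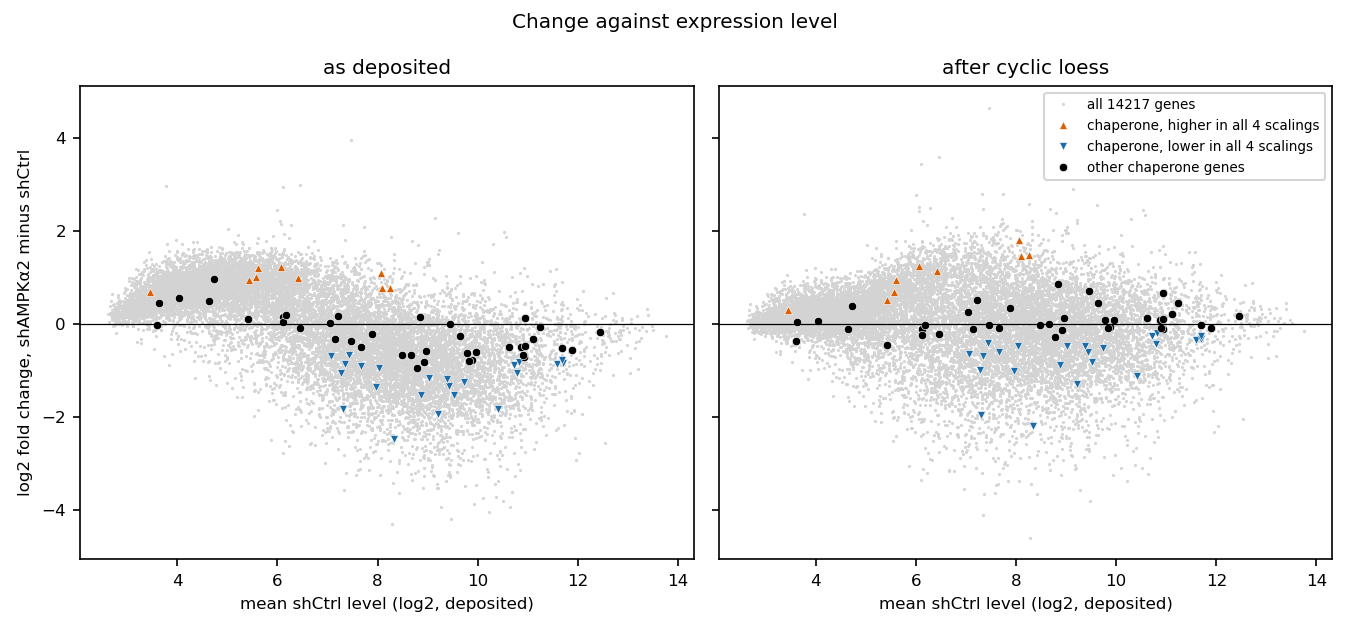
Log2 fold change (vertical, shAMPKα2 minus shCtrl) against the mean log2 level on the shCtrl arrays (horizontal), as deposited on the left and under cyclic loess on the right. Grey points are all 14217 genes, and coloured triangles are chaperone genes that passed in the same direction in all 4 scalings. In the left panel most low genes lie above 0 and most genes of medium and high level below it, among chaperones and among other genes.

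That fall went with the level of the genes. The deposited values spanned a narrower range on the shAMPKα2 arrays, where the SD over probe sets was 1.76 to 1.82, than on the shCtrl arrays, where it was 2.17 to 2.19, and chaperone genes are well expressed: 55 of the 71 lay above the median gene. Among the 12 chaperone genes at an shCtrl level of 9 to 10, for example, the median change was -0.98, and among all 1602 genes of that level it was -0.90. At a level of 10 to 11 the medians were -0.70 for 10 chaperone genes and -0.84 for 837 genes, and above 11 they were -0.54 for 8 and -0.49 for 442. Below 5 they were 0.52 for 6 and 0.66 for 3521. The median of the chaperone genes had the same sign as that of all genes in each of the 6 bins of level, and under cyclic loess it lay between -0.28 and 0.24 in each.

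Other scalings of the arrays changed the balance. Under quantile normalization 27 chaperone genes fell and 17 rose, where 28.9% of all genes fell and 43.8% rose (72.7% in all), and the median change of the chaperone genes was -0.04. Cyclic loess also gave 27 falls and 17 rises, where 31.5% of all genes fell and 40.2% rose (71.8% in all), and a median of -0.09. Under median centring 50 fell and 11 rose, where 48.2% of all genes fell and 35% rose (83.1% in all), and the median was -0.74. The median over all genes was 0.16 under quantile normalization, 0.09 under cyclic loess and -0.17 under median centring. In the same direction in all 4 scalings, 23 chaperone genes (32.4%) fell and 9 (12.7%) rose, against 26.4% and 25.5% of all genes, 52% in all. These 32 genes passed with a direction that did not depend on the scaling. In RNA from whole cultures, fewer cells of a kind and less RNA per cell cannot be told apart.

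**Figure D2:**
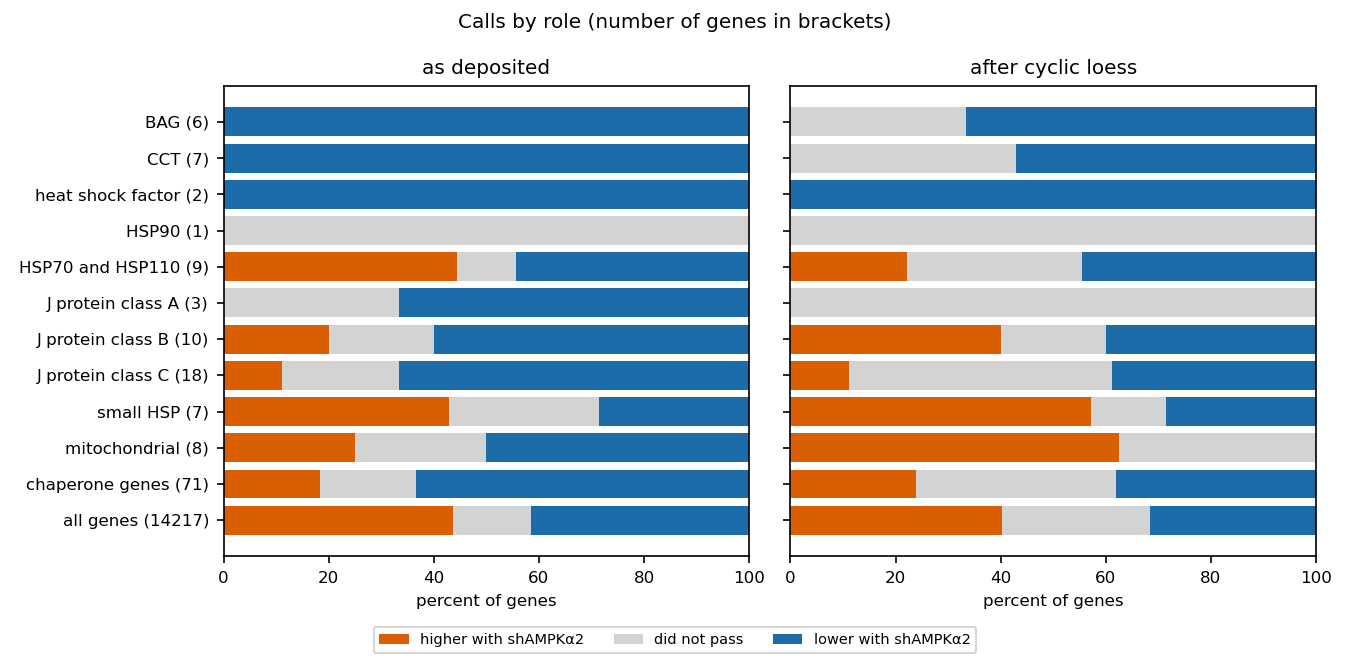
Percent of genes in each role that rose, did not pass or fell (limma, adjusted p under 0.05), as deposited on the left and under cyclic loess on the right, with the number of genes in brackets. As deposited, 6 of 6 BAG and 7 of 7 Cct genes fell, where 41.5% of all genes did. Under cyclic loess 4 of each fell, against 31.5% of all genes.

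Both heat shock factor genes fell. Hsf1 encodes the factor that drives the heat shock response, and it read 7.07, 7.22 and 6.98 on the shAMPKα2 arrays, against 8.08, 7.97 and 8.05 on the shCtrl arrays. Hsf2, a related factor that can pair with it, read 8.13, 8.13 and 8.05 on the shAMPKα2 arrays, against 9.44, 9.43 and 9.44 on the shCtrl arrays. Every shAMPKα2 array lay below every shCtrl array for both. Hsf1 fell by 0.94 in log2 units (SE 0.09, limma, adjusted p = 2.63e-06), which is 1.93-fold, and Hsf2 by 1.33 (SE 0.08, limma, adjusted p = 7.96e-08), which is 2.52-fold. The changes were -0.47 and -0.62 under cyclic loess and passed there too. Of the other 3 probe sets of Hsf2, 1 fell by 1.05, while those with -0.19 and -0.10 did not pass. Under cyclic loess these 3 probe sets had -0.59, 0.45 and -0.70 and passed, so the direction of Hsf2 differed between its probe sets there.

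Heat shock factors bind inverted repeats of the unit GAA, and the 250 bases before the start of each gene were searched for them in RefSeq promoters (GRCr8), of which 58 of the 71 genes had an entry. A run of 3 such units that alternate between GAA and its reverse complement TTC, with any 2 bases (NN) between neighbours, stood before 3 of the 58 chaperone genes (5.17%) and before 0.597% of 27457 genes. A pair of units, GAANNTTC or TTCNNGAA, which the run of 3 contains, stood before 15 of the 58 (25.9%) and 13.2% of all. Each pattern was sought in both orders, so that both strands were covered. Of the 15 with a pair, 12 fell, 1 rose and 2 did not pass as deposited, and of the 43 without one 26 fell, 9 rose and 8 did not pass, with medians of -0.52 and -0.59. Under cyclic loess the medians were -0.03 with a pair and -0.09 without. The 3 genes with a run of 3 were Hspd1, Hspe1 and Hsph1. The upstream sequences of Hspd1 and Hsph1 are shown because they hold it (that of Hsph1 also has a separate pair farther upstream). That of Dnajb1 is shown because it holds a pair and the gene fell. That of Hspa4 is shown because it holds neither and, with the probe sets used, the gene had the largest fall of the 71. All genes shown fell as deposited, and Dnajb1 and Hspa4 were picked by their falls. Of the genes with a pair that are not shown, Dnajc27 rose, and Hspb1 (0.11) and Hspe1 (-0.07) did not pass. Capitals mark every match of a pair or a run, each line runs 5′ to 3′ on the gene's strand, and the last base is the one before the gene's start.
Hspd1, chr9:64084038-64084287, minus strand: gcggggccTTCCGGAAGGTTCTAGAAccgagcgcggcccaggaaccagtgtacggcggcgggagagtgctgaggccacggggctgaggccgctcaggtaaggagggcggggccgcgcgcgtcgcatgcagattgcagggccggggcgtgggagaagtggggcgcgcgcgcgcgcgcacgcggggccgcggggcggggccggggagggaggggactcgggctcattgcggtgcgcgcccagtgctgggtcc
Hsph1, chr12:10427118-10427367, plus strand: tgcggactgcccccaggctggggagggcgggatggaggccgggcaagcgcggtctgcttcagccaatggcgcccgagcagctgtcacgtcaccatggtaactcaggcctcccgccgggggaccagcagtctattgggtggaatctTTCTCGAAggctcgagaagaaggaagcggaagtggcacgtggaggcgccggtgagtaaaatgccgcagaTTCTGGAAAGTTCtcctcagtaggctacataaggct
Dnajb1, chr19:41431142-41431391, minus strand: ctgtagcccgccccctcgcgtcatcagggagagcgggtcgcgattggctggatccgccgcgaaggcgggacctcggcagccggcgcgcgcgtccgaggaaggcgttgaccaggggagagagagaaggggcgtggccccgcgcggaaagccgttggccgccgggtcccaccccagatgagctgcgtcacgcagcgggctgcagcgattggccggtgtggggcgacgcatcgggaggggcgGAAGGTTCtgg
Hspa4, chr10:37949836-37950085, minus strand: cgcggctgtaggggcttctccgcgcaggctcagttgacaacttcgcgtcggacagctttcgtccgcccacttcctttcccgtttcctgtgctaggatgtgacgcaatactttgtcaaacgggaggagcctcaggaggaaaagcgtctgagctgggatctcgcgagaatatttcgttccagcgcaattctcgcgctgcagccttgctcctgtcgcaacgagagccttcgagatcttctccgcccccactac
The site of Hspd1 begins 242 bases before its start. Hspe1 lies head to head with Hspd1, with 289 bases between their starts, and the same 18 bases, read from the other strand, begin 65 bases before the start of Hspe1. The run of Hsph1 begins 36 bases and the pair of Dnajb1 11 bases before the start.

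The HSP110 genes fell, and one of them had the largest change among all chaperone genes with the probe sets used. The other probe set of Dnajb1, which was not used, had a larger change, -3.08 as deposited and -2.41 under cyclic loess. Hspa4, a nucleotide exchange factor of HSP70, read 5.65, 6.18 and 5.76 on the shAMPKα2 arrays, against 8.24, 8.37 and 8.39 on the shCtrl arrays. It fell by 2.47 (SE 0.13, limma, adjusted p = 3.83e-08), a 5.55-fold fall, and its change was -2.30 under quantile normalization, -2.21 under cyclic loess and -2.69 under median centring. Hsph1, which encodes HSP105 and carries the run of 3 units shown above, read 9.91, 9.86 and 9.71 on the shAMPKα2 arrays, against 10.73, 10.71 and 10.74 on the shCtrl arrays. It fell by 0.90 (SE 0.08, limma, adjusted p = 2.38e-06) and by a smaller amount under cyclic loess (-0.27). Hspa4l, the third HSP110 gene, fell by 0.70 (SE 0.12) at an shCtrl level of 7.06, and by 0.66 under cyclic loess. All 3 fell in every scaling, as did 26.4% of all genes. Their groups did not overlap, as in 87.1% of all genes.

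The HSP70 genes themselves went both ways. Hspa14, a divergent HSP70 that works at the ribosome, fell by 1.95 (SE 0.10, limma, adjusted p = 2.69e-08), with means of 7.27 ± 0.16 on the shAMPKα2 arrays and 9.22 ± 0.05 on the shCtrl arrays (SD, n = 3). Its change was -1.29 under cyclic loess. Dnajc2 encodes the J protein that forms the ribosome-associated complex with it, and fell by 0.96 (SE 0.12), with -0.29 under cyclic loess, which passed, and -0.27 under quantile normalization, which did not. Hspa1a, the stress-inducible HSP70, read 5.79, 5.57 and 5.74 on the shAMPKα2 arrays, against 4.56, 5.13 and 4.50 on the shCtrl arrays. It rose by 0.97 (SE 0.15, limma, adjusted p = 0.000125) at a low level, where 86.7% of all genes under an shCtrl level of 5 did so, and the 0.37 of cyclic loess missed the threshold. Its near-identical copy Hspa1b may share this probe set. The groups did not overlap, and shCtrl replicate 2, at 5.13, was the highest of its group. Summed levels of 3 endothelial markers were 14.24 to 15.03 on the shAMPKα2 arrays and 12.36 to 13.35 on the shCtrl arrays. Of the 3, 2 passed as higher as deposited and 1, Pecam1, under cyclic loess, while Tek (0.29 as deposited) passed in neither. Hspa12b, a distant HSP70 relative known from endothelium, rose, as did 65.2% of all genes at an shCtrl level of 5 to 7. It had means of 6.57 ± 0.22 on the shAMPKα2 arrays and 5.57 ± 0.27 on the shCtrl arrays (SD, n = 3, limma, adjusted p = 7.07e-05). Its change was 0.68 under cyclic loess, and its other 2 probe sets rose by 0.95 and 1.23. Hspa1l and Hspa12a rose by 0.45 and 0.48 at shCtrl levels of 3.64 and 4.64, and neither passed under cyclic loess, where the change of Hspa12a was -0.11. Hspa13, an HSP70-like protein of the endoplasmic reticulum, had 0.14 and did not pass, while 0.86 under cyclic loess did.

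HSP90 was read through Hsp90ab1, its constitutive cytosolic form and the most highly expressed gene of the group. It read 12.36, 12.19 and 12.23 on the shAMPKα2 arrays, against 12.44, 12.46 and 12.43 on the shCtrl arrays. The groups did not overlap, but the change of -0.18 did not pass (limma, adjusted p = 0.0561). Its other probe set fell by 0.47 and had a similar level. Under cyclic loess the change was 0.17 and did not pass, and under median centring it was -0.40 and did. The fall also passed without shAMPKα2 replicate 1 (-0.23), without the lowest 25% of genes and with an intensity trend (-0.18 in both), with the mean of its probe sets (-0.33) and with the most variable one (-0.47).

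All 7 measured subunit genes of TRiC with a Cct symbol fell in the deposited values, where 41.5% of all genes fell. At their shCtrl levels, 10.82 to 11.89, most genes fell: 80.5% at 10 to 11 and 67.9% at 11 and over. The symbol rule leaves out another subunit gene, Tcp1, which fell by 0.60 (SE 0.08, limma, adjusted p = 5.39e-05) and had -0.12 under cyclic loess, which did not pass. TRiC is a double ring that folds actin, tubulin and other newly made proteins, and each subunit takes a fixed place in the ring. With the brightest probe set of each gene the fall was largest for Cct2, which read 10.80, 10.75 and 10.59 on the shAMPKα2 arrays, against 11.60, 11.57 and 11.59 on the shCtrl arrays. Cct2 fell by 0.87 (SE 0.09, limma, adjusted p = 3.42e-06), or 1.83-fold. Cct7 read 11.08, 10.87 and 10.61 on the shAMPKα2 arrays, against 11.73, 11.70 and 11.68 on the shCtrl arrays, and Cct4 read 10.99, 10.97 and 10.78 on the shAMPKα2 arrays, against 11.69, 11.67 and 11.70 on the shCtrl arrays. Their falls were 0.85 (SE 0.11) and 0.77 (SE 0.09). Cct8 read 10.08, 9.94 and 9.98 on the shAMPKα2 arrays, against 10.83, 10.81 and 10.81 on the shCtrl arrays. Its fall was 0.82 (SE 0.08). For these 4 genes no shAMPKα2 array reached any shCtrl array, and all 4 fell in every scaling, by 0.20 to 0.34 under cyclic loess. Among all genes the groups did not overlap in 87.1%, and 26.4% fell in every scaling. The brightest probe sets of the other 3 genes had falls of 0.47 to 0.57. Cct5 read 11.35, 11.42 and 11.19 on the shAMPKα2 arrays, against 11.89, 11.90 and 11.87 on the shCtrl arrays, and its fall of 0.57 was not kept under cyclic loess (-0.10). Cct6a read 10.37, 10.40 and 10.30 on the shAMPKα2 arrays, against 10.90, 10.85 and 10.86 on the shCtrl arrays, a fall of 0.51. Cct3 read 10.56, 10.46 and 10.37 on the shAMPKα2 arrays, against 10.93, 10.95 and 10.93 on the shCtrl arrays, a fall of 0.47. Without overlap on the deposited scale, both had changes of the other sign under quantile normalization (0.04 and 0.07) and cyclic loess (0.08 and 0.11), which did not pass. Dimmer probe sets gave other sizes: their changes were -1.94 in Cct8, -0.96 in Cct5 and -1.085 in Cct6a on the log2 scale, and under cyclic loess, where that of Cct6a thus kept its direction, they had -1.35, -0.38 and -0.50 and passed. The median over the 7 was -0.77 as deposited, -0.29 under quantile normalization, -0.20 under cyclic loess and -0.99 under median centring.

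**Figure D3:**
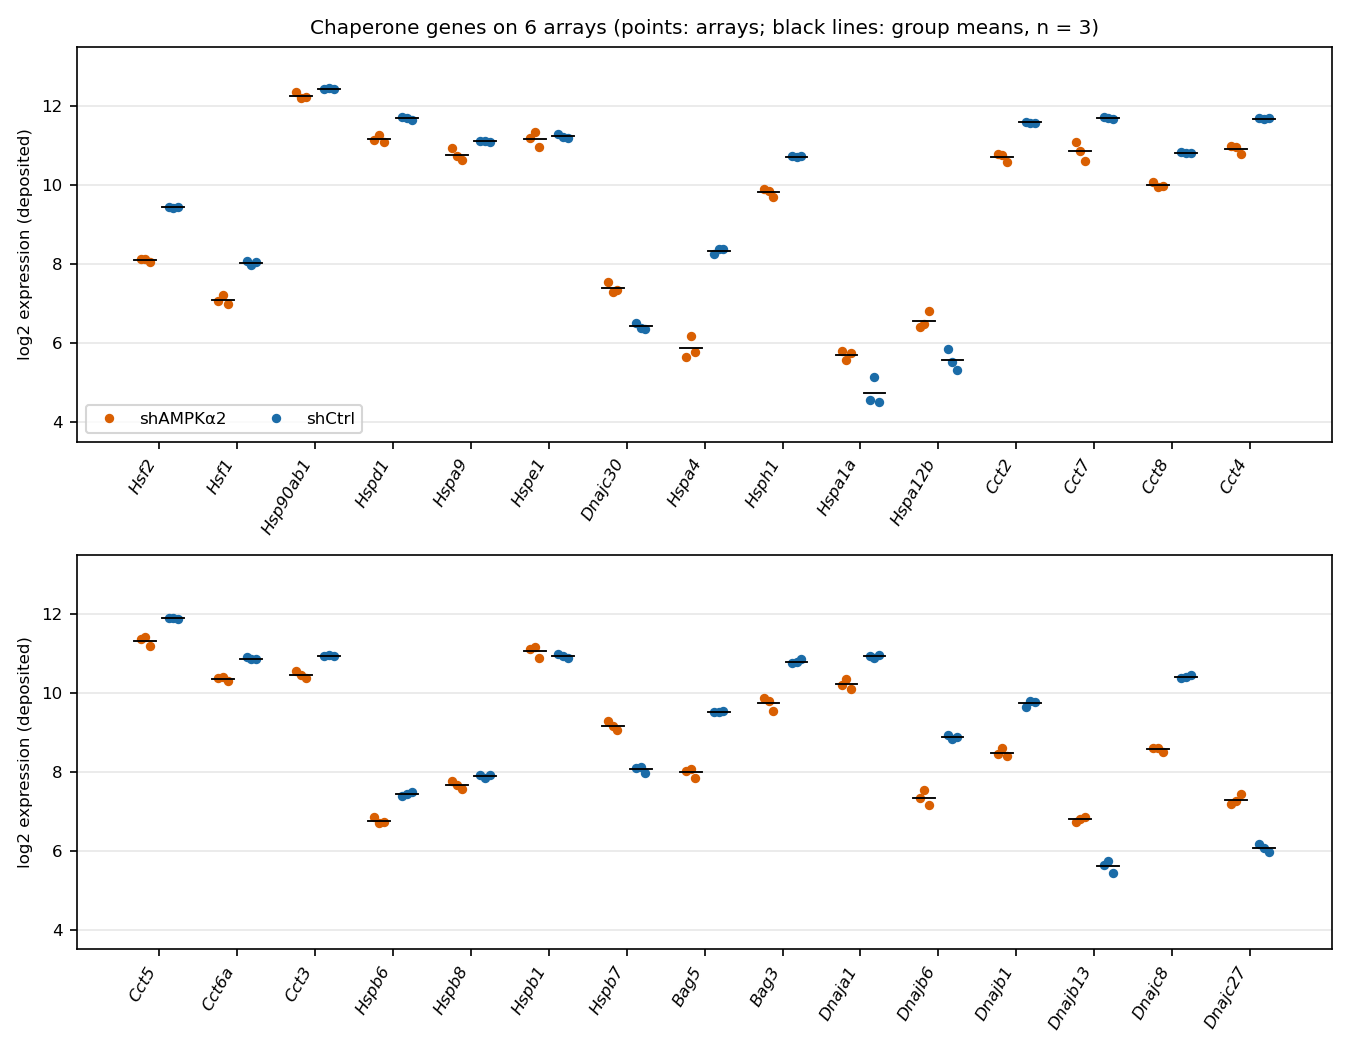
Deposited log2 expression (vertical) of named chaperone genes on each of the 6 arrays, ordered by role, with shAMPKα2 arrays in orange and shCtrl arrays in blue, and the mean of each group (n = 3) as a black line. Hspa4 shows the widest gap, 5.65 to 6.18 against 8.24 to 8.39, and Hspe1 and Hspb1 show groups that overlap.

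Classes A and B hold HSP70's general folding partners, and of their 13 genes outside mitochondria 8 fell and 2 rose as deposited, where 41.5% of all genes fell and 43.6% rose. Under cyclic loess none of the 3 class A genes passed, and of the 10 class B genes 4 fell and 4 rose. Dnajb1, the heat-inducible J protein that works with HSP70 and HSP110 on aggregated protein, read 8.45, 8.61 and 8.39 on the shAMPKα2 arrays, against 9.63, 9.80 and 9.76 on the shCtrl arrays. It fell by 1.25 (SE 0.09, limma, adjusted p = 3.94e-07), with -0.53 under cyclic loess, and its other probe set fell by 3.08. With the probe sets used, the largest fall of class B was in Dnajb6, which keeps aggregation-prone proteins soluble. Dnajb6 read 7.34, 7.53 and 7.15 on the shAMPKα2 arrays, against 8.92, 8.82 and 8.87 on the shCtrl arrays, a fall of 1.53 (SE 0.10), with -0.90 under cyclic loess. Dnaja1, the main class A partner of cytosolic HSP70, read 10.20, 10.36 and 10.09 on the shAMPKα2 arrays, against 10.94, 10.89 and 10.96 on the shCtrl arrays. Its fall of 0.71 and that of Dnaja2, 0.68, passed as deposited and not under cyclic loess (-0.11 and -0.08). Dnaja4 had 0.14 and did not pass.

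Of the other class B genes, Dnajb14, of the endoplasmic reticulum membrane, fell by 1.36 (SE 0.11) and by 1.01 under cyclic loess. Its other probe sets gave -0.06, which did not pass, and a rise of 0.92 at an shCtrl level of 3.26. Dnajb2 and Dnajb5 fell by 0.82 and 0.32 as deposited, and did not pass under quantile normalization or cyclic loess. Dnajb4 had -0.26 as deposited and 0.45 under cyclic loess, and passed in both, but the deposited fall was lost without any one of the 3 shCtrl arrays. Dnajb12 had 0.15, which did not pass, and 0.51 under cyclic loess, which did. The other probe set of Dnajb12 went the other way, with -0.27 as deposited and -0.33 under cyclic loess, and passed in both. Rises in every scaling were seen in Dnajb13, a J protein of sperm tails and cilia, and Dnajb3, known from mouse testis. Dnajb13 read 6.74, 6.81 and 6.85 on the shAMPKα2 arrays, against 5.64, 5.73 and 5.44 on the shCtrl arrays, a rise of 1.19 (SE 0.09) that was 0.94 under cyclic loess. Dnajb3 rose by 0.68 at the low shCtrl level of 3.45. Dnajb7 had -0.03, which did not pass, and -0.38 under cyclic loess, which did.

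Class C J proteins send HSP70 to particular tasks, and of the 18 outside mitochondria 12 (66.7%) fell and 2 (11.1%) rose as deposited, against 41.5% and 43.6% of all genes. Under quantile normalization 5 fell and 2 rose, and under cyclic loess 7 (38.9%) fell and 2 rose, against 31.5% and 40.2% of all genes. The largest falls were in Dnajc8 and Dnajc21. Dnajc8, a protein of the spliceosome, read 8.61, 8.60 and 8.51 on the shAMPKα2 arrays, against 10.39, 10.39 and 10.46 on the shCtrl arrays. It fell by 1.84 (SE 0.08, limma, adjusted p = 1.14e-08), which is 3.58-fold, and by 1.13 under cyclic loess. Dnajc21, which takes part in the maturation of the large ribosomal subunit, fell by 1.83 (SE 0.12), and its change was -1.85 under quantile normalization, -1.97 under cyclic loess and -2.04 under median centring. The other genes that fell in every scaling were Dnajc5, the cysteine string protein of secretory vesicles (-1.20), Dnajc24, which acts in the synthesis of diphthamide on elongation factor 2 (-1.07), and Dnajc14 (-0.92). Under cyclic loess they changed by -0.48, -1.01 and -0.61. The other probe sets of Dnajc5 had -1.17, which passed, and 0.05, which did not. Under cyclic loess those had -0.66 and 0.33, and both passed.

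The 2 rises of class C passed in every scaling, where 25.5% of all genes rose in every scaling. Dnajc27, a small GTPase with a J domain, read 7.19, 7.25 and 7.43 on the shAMPKα2 arrays, against 6.18, 6.06 and 5.98 on the shCtrl arrays. It rose by 1.22 (SE 0.09, limma, adjusted p = 5.98e-07) as deposited and by 1.25 under cyclic loess. The rise of 1.22 was the largest of the 71 genes as deposited, with the probe sets used. Dnajc22, a membrane protein, rose by 0.77 (SE 0.12) at an shCtrl level of 8.25, where most genes fell, and by 1.48 under cyclic loess. Dnajc9, a histone chaperone (-0.80), Dnajc13, of endosomes (-0.67), Dnajc7, a partner of HSP70 and HSP90 (-0.60), Dnajc1 (-0.59), Dnajc10 (-0.50) and Dnajc18 (-0.38) fell as deposited and did not pass under cyclic loess, where their changes lay between -0.09 and 0.12. The other probe set of Dnajc10 fell by 1.30, and by 0.60 under cyclic loess, and passed in both. Dnajc4, Dnajc6, Dnajc12 and Dnajc17 did not pass as deposited, with changes of -0.09 to 0.19, and of these Dnajc6, the auxilin that uncoats clathrin vesicles, passed under cyclic loess (-0.25).

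**Figure D4:**
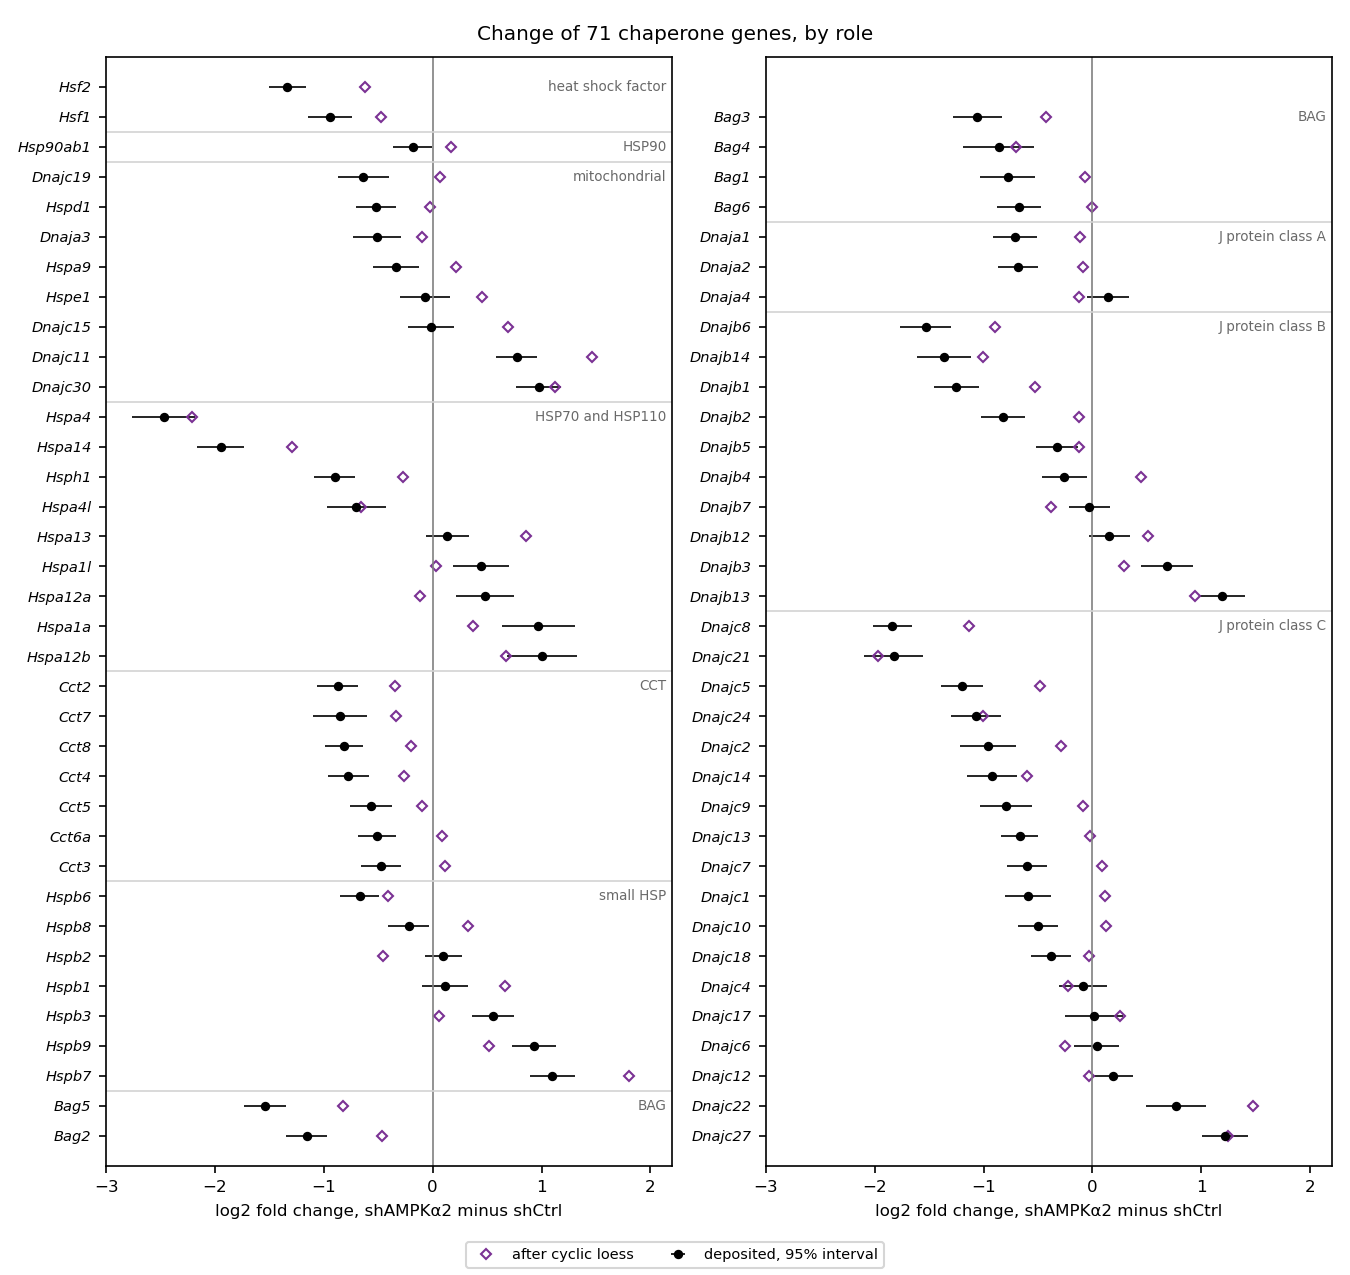
Log2 fold change (horizontal, shAMPKα2 minus shCtrl) of each of the 71 chaperone genes by role, as deposited with its 95% interval from limma (black) and under cyclic loess (open diamonds). Hspa4, Hspa14, Dnajc8 and Dnajc21 stay lowest on both scales, and Dnajc27, Dnajc30 and Hspb7 lie to the right on both.

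In the deposited values 6 of 6 BAG genes fell, with log2 changes of -1.54 to -0.67, where 41.5% of all genes fell. Their shCtrl levels were 7.34 to 10.79. Of all genes 67.7% fell at a level of 7 to 9, 82.6% at 9 to 10 and 80.5% at 10 to 11. Bag5, a nucleotide exchange factor of HSP70, read 8.02, 8.08 and 7.85 on the shAMPKα2 arrays, against 9.52, 9.51 and 9.54 on the shCtrl arrays. It fell by 1.54 (SE 0.09, limma, adjusted p = 6.6e-08), which is 2.91-fold, and by 0.83 under cyclic loess. Bag3, which with Hspb8 sends damaged proteins to autophagy, read 9.87, 9.79 and 9.53 on the shAMPKα2 arrays, against 10.75, 10.78 and 10.85 on the shCtrl arrays. It fell by 1.06 (SE 0.10), and by 0.43 under cyclic loess. Bag2, an inhibitor of the ubiquitin ligase CHIP, fell by 1.16 and Bag4 by 0.86, and under cyclic loess they changed by -0.47 and -0.70. Bag1 and Bag6, which guides tail-anchored proteins, fell by 0.78 and 0.67, but their changes under quantile normalization (-0.03 and 0.02) and cyclic loess (-0.07 and -0.002) did not pass. The median over the 6 was -0.96 as deposited, -0.45 under quantile normalization and also under cyclic loess, and -1.18 under median centring.

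Small heat shock protein genes were divided. Hspb7, known from heart and muscle as a partner of filamin, rose most. It read 9.28, 9.15 and 9.05 on the shAMPKα2 arrays, against 8.09, 8.13 and 7.96 on the shCtrl arrays. Its rise of 1.10 (SE 0.09, limma, adjusted p = 1e-06), 2.14-fold, ran against the fall of most genes at its level and was 1.81 under cyclic loess, and its other probe set rose by 1.26. Hspb9, known from testis, rose by 0.93 (SE 0.09) and by 0.52 under cyclic loess. Hspb6, which is abundant in muscle, read 6.86, 6.71 and 6.72 on the shAMPKα2 arrays, against 7.39, 7.44 and 7.48 on the shCtrl arrays, a fall of 0.67 (SE 0.08) that was -0.41 under cyclic loess. Hspb1, which encodes HSP27, was the highest of the family and read 11.12, 11.16 and 10.87 on the shAMPKα2 arrays, against 10.99, 10.94 and 10.89 on the shCtrl arrays. Here the groups overlapped, and the change of 0.11 (95% interval -0.10 to 0.33) did not pass. Under quantile normalization (0.58) and cyclic loess (0.66) it passed as a rise, and without shAMPKα2 replicate 3, the lowest of its group, it was 0.20 and passed. Hspb8 read 7.76, 7.66 and 7.58 on the shAMPKα2 arrays, against 7.91, 7.84 and 7.92 on the shCtrl arrays. Its fall of 0.22 (limma, adjusted p = 0.029) did not pass without any one of the 3 shCtrl arrays, and it turned to rises of 0.36 under quantile normalization and 0.33 under cyclic loess. Hspb3 rose by 0.56 at an shCtrl level of 4.04 and did not pass under cyclic loess. Hspb2 had 0.10, which did not pass, and -0.46 under cyclic loess, which did.

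Mitochondrial chaperone genes went both ways, and their balance depended on the scaling. Hspd1 encodes HSP60 and Hspe1 its lid HSP10, which close around a protein together, and both genes start from the head-to-head region shown above. Hspd1 read 11.15, 11.28 and 11.09 on the shAMPKα2 arrays, against 11.73, 11.69 and 11.65 on the shCtrl arrays. Hspe1 read 11.20, 11.34 and 10.97 on the shAMPKα2 arrays, against 11.30, 11.22 and 11.20 on the shCtrl arrays. The arrays of Hspd1 did not overlap, and it fell by 0.52 (95% interval -0.71 to -0.33, limma, adjusted p = 0.000159). Those of Hspe1 overlapped, and its change of -0.07 (95% interval -0.30 to 0.16) did not pass (limma, adjusted p = 0.551). Under cyclic loess Hspd1 had -0.03, which did not pass, and Hspe1 rose by 0.46. The difference between both genes was not tested. Hspa9, the HSP70 of the matrix, read 10.95, 10.73 and 10.63 on the shAMPKα2 arrays, against 11.11, 11.12 and 11.10 on the shCtrl arrays. Its fall of 0.34 (limma, adjusted p = 0.00655) turned to 0.16 under quantile normalization, which did not pass, and to 0.22 under cyclic loess, which did. Its other probe sets had -0.08 and -0.22, which did not pass, and -0.39, which did. Under cyclic loess they had 0.56, -0.33 and -0.96 and passed, so the direction of Hspa9 differed between its probe sets there.

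The 2 mitochondrial genes that rose in every scaling, as did 25.5% of all genes, were Dnajc30 and Dnajc11, which encode J proteins. Dnajc30, of the inner membrane, read 7.54, 7.29 and 7.35 on the shAMPKα2 arrays, against 6.51, 6.38 and 6.36 on the shCtrl arrays. It rose by 0.97 (SE 0.09, limma, adjusted p = 2.84e-06) and by 1.13 under cyclic loess, and its other probe set rose by 1.01. Dnajc11, which belongs to the machinery that shapes the cristae, rose by 0.77 (SE 0.08) at an shCtrl level of 8.09, where most genes fell, and by 1.46 under cyclic loess, and all 3 of its probe sets rose. Dnajc19 and Dnajc15, J proteins of the import motor, parted: Dnajc19 fell by 0.64 and had 0.07 under cyclic loess, which did not pass, while Dnajc15 had -0.01, which did not pass, and rose by 0.69 under cyclic loess. Dnaja3, a J protein of the matrix, fell by 0.51 and did not pass under cyclic loess (-0.10). Of the 8 mitochondrial genes 4 fell and 2 rose as deposited, where 41.5% of all genes fell and 43.6% rose. Under quantile normalization 1 fell and 4 rose (28.9% and 43.8% of all genes), under cyclic loess 0 fell and 5 rose (31.5% and 40.2%), and under median centring 6 fell and 2 rose (48.2% and 35%).

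Probe sets of the same gene did not always move together. Of 29 chaperone genes with more than 1 probe set, 13 had all probe sets pass in the same direction, among them Cct5, Cct6a, Cct8, Dnaja1, Dnajb1, Hsph1, Hspb7, Dnajc11 and Dnajc30. In 6 genes probe sets passed in opposite directions: Dnajb2, Dnajb5, Dnajb14, Dnajc1, Dnajc7 and Dnajc24. In each of these the probe set with the highest level fell and a dimmer one rose, by 0.80 in Dnajb2 and 0.97 in Dnajc7, for example. Of all genes 65.2% rose at an shCtrl level of 5 to 7, and 67.7% fell at 7 to 9. Under cyclic loess only Dnajb5 and Dnajb14 of the 6 still had opposite calls, and Hsf2, Hspa9, Dnajb12 and Dnajc5 then had them. The shares among all genes with more than 1 probe set were not computed. In Dnaja1 and Cct8 the dimmer probe set fell further, by 1.66 and 1.94, than the brighter one. Which transcripts each probe set reads was not analysed here.

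**Figure D5:**
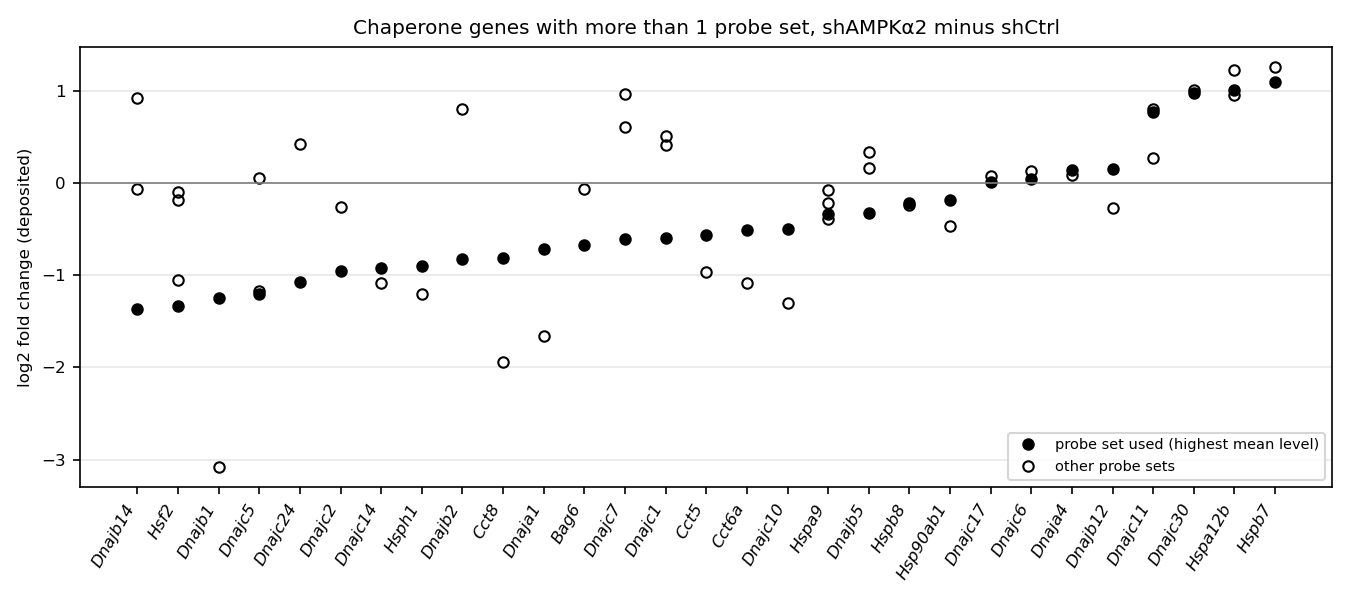
Log2 fold change as deposited (vertical, shAMPKα2 minus shCtrl) of every probe set of the 29 chaperone genes with more than 1, with the probe set used in black and the others open. The other probe set of Dnajb1 lies at -3.08, and genes such as Dnajb14, Dnajb2 and Dnajc7 have open points above 0 and black points below it.

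Most partners outside the group also fell in the deposited values. Of 32 measured genes, a list of co-chaperones that also holds the TRiC subunit Tcp1 and the α-crystallins Cryaa and Cryab, 24 (75%) fell and 3 (9.38%) rose, against 41.5% and 43.6% of all genes. The α-crystallins were 2 of the 3 rises. Their median change was -0.44, against 0.05 over all genes, and under cyclic loess 11 (34.4%) fell and 13 (40.6%) rose, near the 31.5% and 40.2% of all genes. Fkbp5, an HSP90 co-chaperone and a known target of the glucocorticoid receptor, read 5.22, 5.24 and 5.14 on the shAMPKα2 arrays, against 7.83, 7.74 and 7.98 on the shCtrl arrays. It fell by 2.66 (SE 0.09, limma, adjusted p = 2.99e-09), 6.3-fold, and had -2.72 under cyclic loess. Both falls were larger than that of any chaperone gene with the probe sets used. Ppid, a cyclophilin that binds HSP90, fell by 1.87 (SE 0.10) and by 1.14 under cyclic loess. Cryab, the small heat shock protein αB-crystallin, read 12.05, 11.95 and 11.79 on the shAMPKα2 arrays, against 11.07, 11.11 and 11.07 on the shCtrl arrays. It rose by 0.85 (SE 0.09) and by 1.33 under cyclic loess, and Cryaa, the α-crystallin of the lens, rose by 0.79 at the low shCtrl level of 4.94.

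Of 22 measured chaperone and stress genes of the endoplasmic reticulum, 13 (59.1%) fell and 4 (18.2%) rose as deposited, against 41.5% and 43.6% of all genes, with a median of -0.41. Under cyclic loess 7 (31.8%) fell and 10 (45.5%) rose, near the 31.5% and 40.2% of all genes. Creld2 and Dnajb11, a stress-induced protein and the J protein of the lumenal HSP70, fell by 1.27 and 1.23, and by 0.63 and 0.53 under cyclic loess. Dnajb9 and Herpud1, which act in the disposal of misfolded proteins, rose by 0.58 and 0.47, and by 1.31 and 1.20 under cyclic loess. A mitochondrial list of 19 measured genes covers protein import and proteolysis and also holds Trap1, Hscb and Atf5. Of the 19, 11 (57.9%) fell and 2 (10.5%) rose as deposited, against 41.5% and 43.6% of all genes, with a median of -0.27. Under cyclic loess 4 (21.1%) fell and 11 (57.9%) rose, against 31.5% and 40.2%. Clpx and Clpp, the unfoldase and the peptidase of the matrix protease ClpXP, fell by 1.81 (SE 0.08) and 1.25 (SE 0.10), and by 1.21 and 0.71 under cyclic loess. Spg7, a subunit of an inner membrane protease, rose by 0.48 (SE 0.11), but its most variable probe set fell by 0.48.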

How the data were processed

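The 6 arrays were grouped by the labels. The values the authors deposited are log2 expression, with a single number for each probe set on each array; background correction, probe summary and normalization are not given in the sources used here. Per the labels' protocols, cRNA was made from 10 µg of total RNA with a one-cycle Affymetrix kit. Of 31099 rows 57 were array controls and were left out, and of the other 31042 probe sets 20826 were paired with 1 gene, 436 with several and 9780 with none. The probe set with the highest mean was used for each of 14217 genes. All 71 chaperone genes matched RefSeq by Entrez identifier, with 0 symbols changed.

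The 2-sided tests came from limma 3.58.1 (R 4.3.3; functions lmFit and eBayes) without covariate or filter. P-values were adjusted by Benjamini-Hochberg over the 14217 genes, and 0.05 was the threshold. Where the probe sets of a gene were compared, the fit and the adjustment ran over all 31042 probe sets. In that fit the probe set used for Cct8 did not pass under cyclic loess (-0.20). Quantile normalization, cyclic loess (3 iterations) and median centring used all non-control probe sets. Other alternatives removed the lowest 25% of genes, used each gene's most variable probe set or the mean of its probe sets, an intensity trend with robust variance, array weights or the replicate number as a block, or left out each array. The fit was tested on simulated data. Members, lists and named genes were chosen with earlier results of these data known. Genes given array by array were a fixed core and, in each role, the largest rise and fall that passed in all 4 scalings without overlap; other members are given by value or count, and of each other list up to 2 rises and 2 falls are named. The number of arrays limits the precision, and with 3 against 3 an exact permutation test cannot go below p = 0.1.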

Additional observations from a re-analysis of the deposited data

How the results depend on the processing

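The scaling of the arrays decided most counts. As deposited 45 chaperone genes fell, against 27 after both quantile normalization and cyclic loess, and their median of -0.52 became -0.0396 and -0.0891 there, -0.74 under median centring and -0.37 with the mean of probe sets. For TRiC the median, -0.77 as deposited, became -0.29 (quantile), -0.20 (loess) and -0.99 (centring). The co-chaperone list numbered 3 rises and 24 falls as deposited, against 13 and 13 (quantile) or 13 and 11 (loess). Genes of the endoplasmic reticulum numbered 4 rises and 13 falls, then 9 and 7, and 10 and 7, with 2 rises under median centring. The mitochondrial list numbered 2 rises and 11 falls, 11 and 4 under quantile normalization and cyclic loess alike, and 1 rise under median centring, with the mean of probe sets or with each gene's most variable one. Prkaa2, at -0.21, passed under median centring (-0.42), without the lowest 25% of genes (-0.21) and with the mean of probe sets (-0.21). Signs turned under quantile normalization and cyclic loess in Hsp90ab1 (0.0051 and 0.17), Hspe1 (0.36 and 0.46), Hspa9 (0.16 and 0.22), Cct3 (0.0691 and 0.11), Cct6a (0.0376 and 0.0812) and Hspb8 (0.36 and 0.33), and in Spg7 with the mean of probe sets (-6e-04) or the most variable one (-0.48). Values that passed in neither setting turned in Hspb1 under median centring (-0.10) and in Hspe1 without shAMPKα2 replicate 3 (range over arrays left out -0.16 to 0.0341). The cause was not tested.

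Leaving out each array gave 43 to 46 falling and 13 to 15 rising chaperone genes, medians of -0.57 to -0.48 for all and -0.81 to -0.71 for TRiC, 22 to 24 falling and 3 to 4 rising co-chaperones, 12 to 13 falling and 3 to 5 rising genes of the endoplasmic reticulum, 10 to 11 falling and 1 to 3 rising genes of the mitochondrial list, with 1 rise without shAMPKα2 replicate 2, shCtrl replicate 1 or shCtrl replicate 2, and a Prkaa2 change of -0.27 to -0.14, which passed without shAMPKα2 replicate 2 (-0.27). Same-numbered arrays of both groups did not deviate together (r of -0.021, 0.014 and -0.098 over genes), so the numbers were not taken as pairs. With the replicate number as a block 44 chaperone genes fell and 13 rose, and Hspb8 no longer passed (limma, adjusted p = 0.0536). Of 613 values of the 41 named genes under all alternatives, 578 kept their direction and side of the threshold. Genes named as the largest changes of a role or list had to pass in all 4 scalings. Their agreement under those scalings was thus fixed in advance. Of all 71 chaperone genes 41 kept their call under quantile normalization, 38 under cyclic loess and 64 under median centring. Signal over background was not analysed here.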

Other observations

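The shAMPKα2 arrays varied more among themselves than the shCtrl arrays. Over the chaperone genes the median SD was 0.122 with the hairpin and 0.0492 with the control virus, and 59 of the 71 genes had the larger SD with the hairpin, as had 73.8% of all genes. In 36 of the 71 the array farthest from the shAMPKα2 mean was replicate 3, with replicates 1 and 2 at 17 and 18. The lowest correlation over genes between arrays of a group was 0.991 with the hairpin and 0.998 with the control virus.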
